A study of Homo sapiens with 4 samples.

Results

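The genes described here are the heat shock protein and DNAJ chaperone genes of the human genome, measured by RNA sequencing in neuroblastoma cells with and without a hairpin against METTL14. They were taken by symbol: protein-coding genes whose names start with HSPA, HSPB, HSPD, HSPE, HSPH, HSP90A or DNAJ, plus the transcription factors HSF1 and HSF2 and the co-chaperone BAG3, and without the 5 endoplasmic reticulum (ER) genes HSPA5, DNAJB9, DNAJB11, DNAJC3 and DNAJC10. This gave 73 members among 60671 genes in the table. The set was named for the cytosol, and the names do not hold to it: 8 members are known as mitochondrial proteins, among them HSPA9, HSPD1, HSPE1 and DNAJC19, and 8 sit in the ER membrane or lumen, among them HSPA13, DNAJB14 and DNAJC18. The other 57 were not sorted further, and include membrane and vesicle proteins such as DNAJC22 and DNAJC5. A further 121 symbol matches were not protein-coding, mostly pseudogenes and antisense genes, and were left out.

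Chaperones bind unfolded or partly folded proteins and keep them from clumping. HSP70 proteins do so in cycles of ATP hydrolysis, which J-domain proteins (the DNAJ families) start by delivering a client, and which HSP110 proteins and BAG proteins end by releasing the nucleotide. HSP90 takes over clients at a late stage of folding, many of them kinases and steroid receptors, while small heat shock proteins hold clients without using ATP. HSF1 is the factor that, when misfolded proteins accumulate, binds repeats of the letters GAA and its complement TTC in front of these genes and switches the inducible ones on; tumour cells are known to depend on this system.

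All cells were SK-N-BE(2), a human neuroblastoma cell line in long use that carries amplified MYCN, the gene of a transcription factor that drives this tumour. The shNC group (2 libraries) carried a scrambled control hairpin and the shMETTL14 group (2 libraries) a hairpin against METTL14, a subunit of the enzyme that places N6-methyladenosine (m6A) on messenger RNA. In both groups the hairpin had been delivered by a pLKO.1 lentiviral vector and carrier cells had been selected with puromycin, so each group is a selected pool of cells. The labels do not say which of the study's hairpins was used, so an effect of the hairpin itself and one of METTL14 loss cannot be told apart, and nothing says that the 2 libraries of a group came from separate cultures: p-values measure the spread between these libraries only.

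Between 18925786 and 19886214 reads per library were counted in genes. METTL14 was counted 753 and 754 times in the shNC libraries against 303 and 321 times in the shMETTL14 libraries, a level of 41.7% of the control (log2 fold change -1.26, SE 0.0832, edgeR adjusted p = 3.64e-11). Genes that mark noradrenergic neuroblastoma were well detected: HAND2 stood at 709 ± 0.312 CPM (counts scaled to a common library size) in shNC and 579 ± 7.09 CPM in shMETTL14 (SD, n = 2), and MYCN had at least 49710 counts in every library. Of these marker genes, HAND2 (log2 fold change -0.29), GATA3 (-0.16), TH (-0.38) and DBH (-0.79) were lower in shMETTL14, and ISL1 (0.28) and MYCN (0.28) were higher. The 12 markers of other cell types summed to 51.1 and 54.6 CPM in shNC and 33.0 and 33.6 CPM in shMETTL14. The largest were the collagen genes COL3A1 (mean 29.2 CPM in shNC, 16.9 in shMETTL14) and COL1A1 (12.7 and 9.12). Of 6 tested, 4 were lower and 0 higher, where 25.3% of all genes were lower, and 3 of 12 had 3 counts or fewer in every library. The part of either kind of marker in the chaperone values was not tested. In bulk RNA, fewer cells that use a gene and less RNA per cell cannot be told apart.

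In the windows around the transcription starts, 7 members held a complete element for HSF1, and these are shown first because their letters are those that HSF1 is known to bind. The full element was searched as GAANNTTC followed by 2 more free bases and GAA, on either strand, where N is any base, so that along the gene it may begin with GAA or with TTC. RefSeq start windows of 300 bases (250 before the start and 50 after it, build GRCh38.p14) were at hand for 64 of the 73 members, all but HSF1, HSPA12B, HSPA14, HSPB2, HSPB2-C11orf52, DNAJC1, DNAJC5B, DNAJC22 and DNAJC24. Each sequence below runs 5′ to 3′ along the gene's own strand over 30 bases, with the element in capitals.
HSPA6: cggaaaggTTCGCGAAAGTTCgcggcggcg
HSPD1: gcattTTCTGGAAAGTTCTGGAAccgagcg
HSP90AB1, farther element: ggagcaggTTCTGGAAGATTCatgggctcc
HSP90AB1, nearer element: tgagattgTTCTGGAAGCTTCtggattctg
DNAJB6: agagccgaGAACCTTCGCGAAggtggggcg
DNAJA1: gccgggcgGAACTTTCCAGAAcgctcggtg
HSPA8, farther element: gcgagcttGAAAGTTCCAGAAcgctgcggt
HSPA8, nearer element: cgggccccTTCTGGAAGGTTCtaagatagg
HSP90AA1: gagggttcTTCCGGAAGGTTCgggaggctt

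The HSPA6 stretch lies at chr1:161524458-161524487 and the HSPD1 stretch at chr2:197500061-197500090 on the minus strand, where 2 overlapping matches join into an element of 18 bases. The HSPD1 stretch also lies within the neighbouring gene HSPE1 (197499994 to 197503457, plus strand). HSPE1 is counted without an element because its own start window held none. The HSP90AB1 stretches lie at chr6:44247770-44247799 and chr6:44247823-44247852, and the DNAJB6 stretch at chr7:157336865-157336894. That of DNAJA1 is at chr9:33025268-33025297 and begins 3 bases after the start of the transcript, the only one of the 9 elements that falls after the start. The HSPA8 stretches lie on the minus strand at chr11:123062345-123062374 and chr11:123062170-123062199, and the HSP90AA1 stretch, also on the minus strand, at chr14:102087111-102087140. The elements before a start ended between 43 bases (HSPA8, nearer) and 228 bases (HSPD1) upstream of it.

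Across all 27305 genes with a window, 166 held the full element, or 0.608%, against 7 of 64 members, or 10.9%. Of the 16 members on a list of genes tied to the heat shock response, called heat-inducible here although it also holds the constitutive HSPA8 and HSP90AB1 and the testis gene HSPA1L, 6 held it (37.5%), HSPA8 and HSP90AB1 among them. The other 48 members held it in 1 gene, DNAJB6. The shorter form GAANNTTC or TTCNNGAA, which also counts every full element, stood in 22 of 64 members (34.4%) and in 16.2% of all genes, and in 13 of the 16 heat-inducible members (81.2%). A match is a run of letters and does not show that HSF1 was bound in these cells. Beside the results that follow, the 7 genes with a full element did not all change. HSPD1, DNAJB6, DNAJA1 and HSP90AA1 were higher in shMETTL14, as were 27.2% of all genes tested. HSP90AB1 and HSPA8 were not called in the main test, and HSPA6 was at 1 count in every library. Of the members called higher that had a window, 4 of 28 held a full element, against 0 of 4 called lower and 2 of 21 not called.

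Of the 73 members, 59 had enough counts to test, and chaperone genes were more often higher than lower in shMETTL14 cells. At an edgeR adjusted p under 0.05, 31 members rose (52.5% of those tested) where 27.2% of all genes tested did so, and 5 members fell (8.47%) where 25.3% of all genes did. In either direction, 36 members were called (61.0%), near the 52.5% of all genes. The median log2 fold change over the 59 members was 0.16 against -0.000953 over all 16309 genes tested, and members ran from -0.92 to 1.07. The changes were small. Of the 36 called members, 25 changed by less than 1.5-fold, and only HSPA2 passed 2-fold, which is 1.69% of the members tested against 8.79% of all genes. That change was a rise, as in 2.8% of all genes, and 0 members fell by 2-fold, as 5.99% of all genes did. The 2 libraries of each group lay apart from those of the other in 50 of 59 members (84.7%), where 75.5% of all genes did so, and in all 36 called members.

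**Figure D1:**
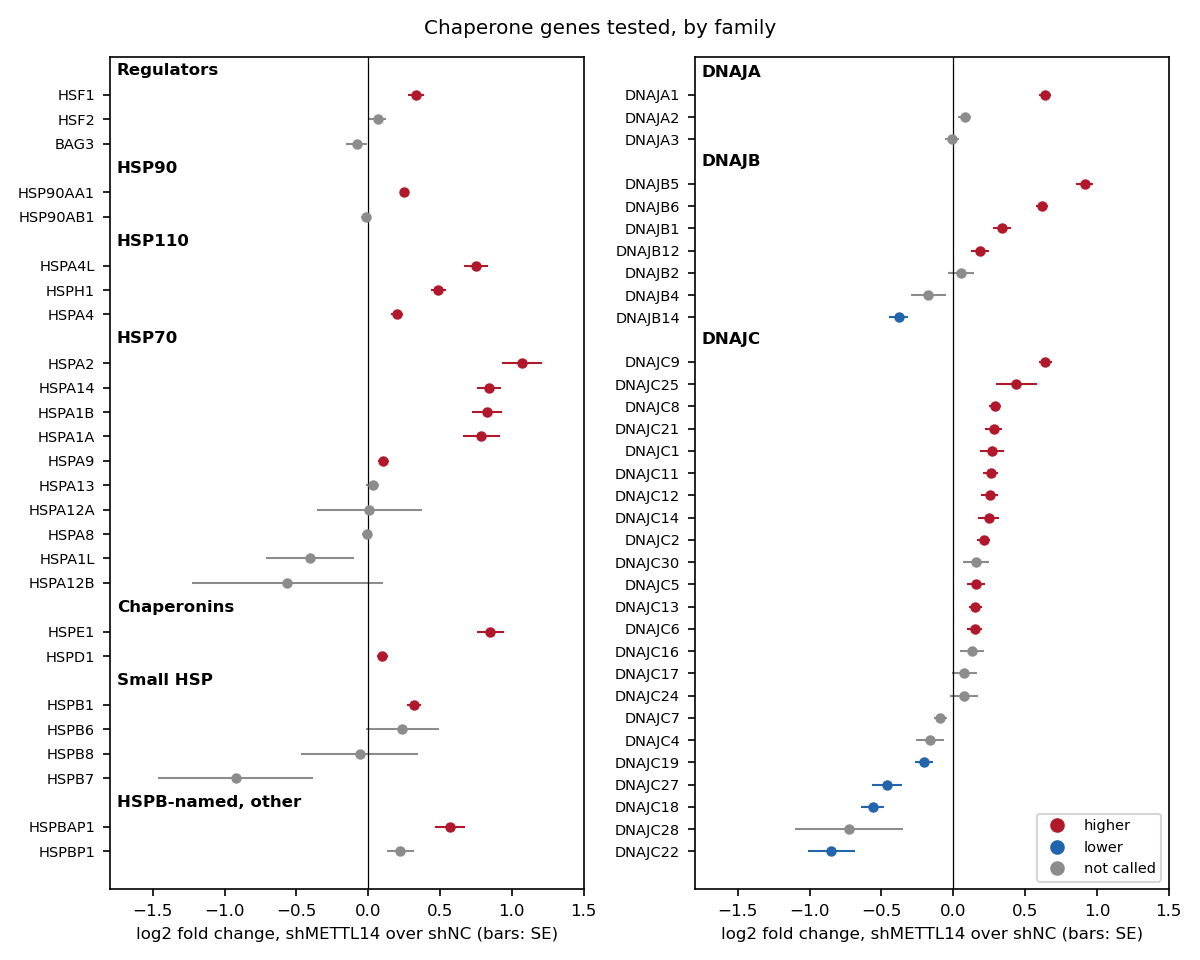
Log2 fold change of shMETTL14 over shNC for the 59 members tested, by family, with bars of 1 SE and colour for the edgeR call at an adjusted p under 0.05. Most coloured points lie to the right of 0: 31 members were higher, 5 lower and 23 not called, and the widest bars belong to genes with few counts such as HSPA12B and HSPB7.

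The members that were not tested numbered 14, and 5 of them had no count in any library: HSPB2, HSPB3 and the readthrough genes HSPE1-MOB4, DNAJC25-GNG10 and HSPB2-C11orf52. The other 9 were DNAJA4, DNAJB7, DNAJB8, DNAJB13, DNAJC5B, DNAJC5G, DNAJC15, HSPA6 and HSPB9. DNAJB13, an axonemal J protein, had the most counts of these, at 5 and 13 in shNC and 7 in each shMETTL14 library. Their levels lay below what this depth can compare.

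HSF1, the master factor of the heat shock response (ENSG00000185122, chromosome 8 from 144291591 to 144314722 in GENCODE 29), was counted 1470 and 1287 times in shNC and 1716 and 1733 times in shMETTL14. Both shMETTL14 libraries lay above both shNC libraries. This was 70.5 ± 4.63 CPM against 88.8 ± 1.70 CPM (SD, n = 2 in each group), a log2 fold change of 0.33 (SE 0.0531, edgeR adjusted p = 1.67e-05). Of its exon bases 2.62% overlapped other genes on the opposite strand, DGAT1 among them. HSF2, a related factor active in development, had 987 and 976 counts against 1002 and 1039, with a log2 fold change of 0.07 (SE 0.0605, edgeR adjusted p = 0.382). BAG3 hands HSP70 clients to autophagy and is itself a well-known target of HSF1. It had 828 and 726 counts in shNC and 729 and 730 counts in shMETTL14, so the groups overlapped, and its log2 fold change of -0.08 (SE 0.0712, edgeR adjusted p = 0.359) passed no threshold.

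The heat-inducible list holds 16 members, of which 15 were tested: 10 rose, 0 fell and 5 were not called. Of all genes tested, 27.2% rose and 25.3% fell. The list's median log2 fold change was 0.32, and under upper quartile scaling 9 of its members rose and 1, HSP90AB1, fell. Over all genes that scaling gave 3550 higher and 4961 lower. The list was written with earlier results of these data known, so its counts describe it and no more. The inducible HSP70 pair HSPA1A and HSPA1B, the HSP110 genes HSPH1 and HSPA4L, and DNAJA1 were among the 10, and the abundant HSPA8 and HSP90AB1, which cells also use without stress, among the 5. The list's summed level was 7547 ± 35.3 CPM in shNC and 8072 ± 45.8 CPM in shMETTL14 (SD, n = 2), or 107% of the control.

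HSPA1A and HSPA1B are the textbook inducible HSP70 genes, a nearly identical pair on chromosome 6. HSPA1A (31815464 to 31817946) had 166 and 177 counts in shNC and 261 and 327 in shMETTL14. HSPA1B (31827735 to 31830255) had 203 and 194 counts against 338 and 362. In both genes every shMETTL14 library was above every shNC library, with log2 fold changes of 0.79 (SE 0.128, edgeR adjusted p = 2.25e-05) for HSPA1A and 0.83 (SE 0.106, edgeR adjusted p = 1.00e-06) for HSPA1B. Of the 100-base words in their transcripts, 69.9% (HSPA1A) and 72.7% (HSPA1B) were shared with other transcripts, those of the pair included. Of HSPA1B's coding bases 47.8% lie also in another gene on the same strand. Reads in shared stretches may not have been counted for either gene, so both levels and the split between them are uncertain. Summed, the counts of the pair rose from 369 and 371 to 599 and 689. This was 18.9 ± 0.609 against 33.2 ± 3.68 CPM (SD, n = 2), 175% of the control. The sum does not restore reads that were not counted. HSPA1L, their neighbour on the other strand and known from testis, went the other way in its values, 41 and 39 counts against 35 and 25, and was not called (log2 fold change -0.40, SE 0.305, edgeR adjusted p = 0.277). HSPA6, which in most human cells appears only under strong heat stress, stood at 1 count in each of the 4 libraries.

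**Figure D2:**
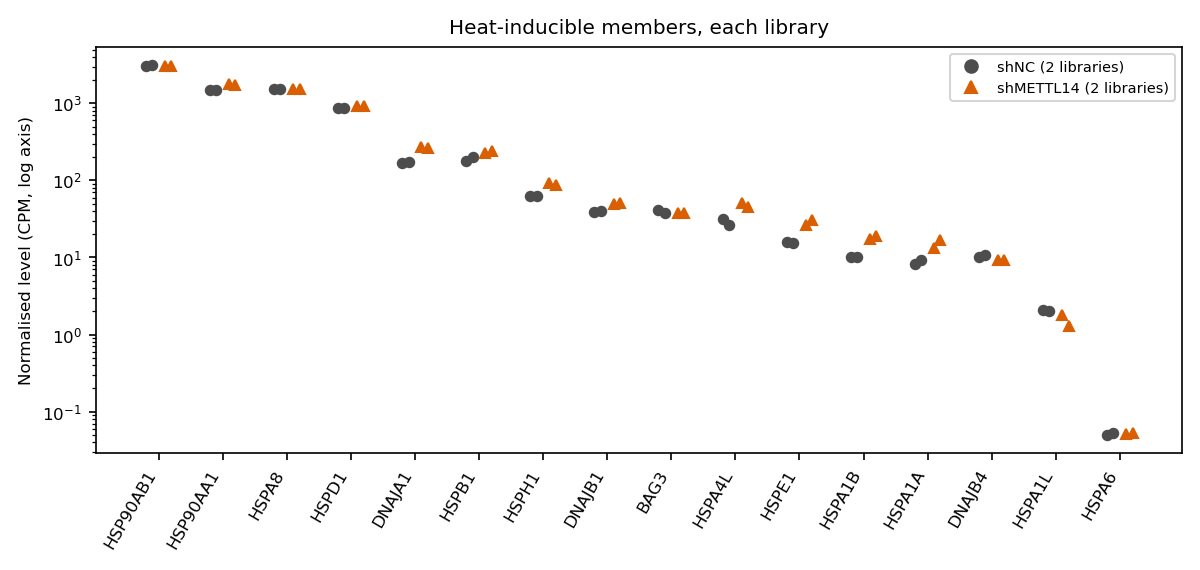
Normalised level in CPM, on a log axis, of the 16 heat-inducible members in each library, with circles for the 2 shNC and triangles for the 2 shMETTL14 libraries. Triangles sit above circles for DNAJA1, HSPH1, HSPA4L, HSPE1, HSPA1A and HSPA1B, while the points of HSP90AB1 and HSPA8 lie side by side and HSPA6 stays at 1 count per library.

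Among the other HSP70 genes, 3 members outside the heat-inducible list were called, all higher. HSPA2, an HSP70 best known from testis and found at lower levels elsewhere (ENSG00000126803, chromosome 14 from 64535905 to 64546173), was the member with the largest log2 fold change. It had 133 and 104 counts in shNC and 230 and 264 in shMETTL14, or 6.05 ± 0.878 against 12.7 ± 1.39 CPM (SD, n = 2). The groups did not overlap, and the log2 fold change came to 1.07 (SE 0.139, edgeR adjusted p = 1.15e-06). HSPA14, which works with a J protein on the ribosome at the emerging chain, had 379 and 407 counts against 730 and 669, a log2 fold change of 0.84 (SE 0.0837, edgeR adjusted p = 2.49e-08). Of its exon bases, 17.4% were shared with other genes on the same strand, so part of its count is uncertain. HSPA9, the mitochondrial HSP70, differed far less, at 633 ± 17.4 against 682 ± 0.0678 CPM (SD, n = 2) and a log2 fold change of 0.11 (SE 0.0372, edgeR adjusted p = 0.0201).

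The constitutive HSP70 of the cytosol, HSPA8, was nearly level across the libraries. Its counts were 30447 and 29313 in shNC and 29704 and 29276 in shMETTL14, or 1529 ± 2.29 and 1519 ± 2.90 CPM (SD, n = 2). Its log2 fold change came to -0.01 (SE 0.0345, edgeR adjusted p = 0.837). HSPA13, a microsome-associated HSP70, had a log2 fold change of 0.03 and was not called. Neither were HSPA12A (0.01) and HSPA12B (-0.56), distant relatives of the family with 2 to 28 counts per library. Over HSP70 and HSP110 members together, 8 of 13 tested rose and 0 fell, with a median of 0.20. Of all genes tested, 27.2% rose and 25.3% fell. In either direction 61.5% of this group were called, near the 52.5% of all genes.

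All 3 HSP110 genes, whose products release ADP from HSP70 and help pull aggregates apart, were higher in shMETTL14. HSPH1 (chromosome 13 from 31134974 to 31162388) had 1269 and 1219 counts in shNC and 1794 and 1675 in shMETTL14, a log2 fold change of 0.49 (SE 0.0510, edgeR adjusted p = 4.90e-08). HSPA4L (chromosome 4 from 127781821 to 127840733) had 625 and 498 counts against 996 and 882, a log2 fold change of 0.75 (SE 0.0828, edgeR adjusted p = 1.10e-07). HSPA4, another gene of this family, had 3933 and 3631 counts against 4456 and 4195, and a log2 fold change of 0.20 (SE 0.0419, edgeR adjusted p = 3.17e-04). The groups did not overlap in any of them, as in 75.5% of all genes tested, and 27.2% of all genes were called higher. The summed level of the 3 genes was 126% of the control.

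The HSP90 genes parted. HSP90AA1, the inducible form, rose from 29347 and 28134 counts to 34623 and 33433. In normalised terms this was 1471 ± 2.23 against 1753 ± 22.0 CPM (SD, n = 2), a log2 fold change of 0.25 (SE 0.0346, edgeR adjusted p = 2.34e-06). HSP90AB1, the constitutive form and the most abundant member, had 61680 and 59431 counts in shNC and 60454 and 58748 in shMETTL14. Its log2 fold change came to -0.01 (SE 0.0331, edgeR adjusted p = 0.757), and under upper quartile scaling, where it was -0.08, it was called lower. The difference between the 2 genes' responses was not tested. Both hold full HSF1 elements in the sequences printed above.

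The mitochondrial chaperonin is built of HSPD1, which forms the barrel, and HSPE1, which forms its lid, and the genes lie head to head on chromosome 2. HSPE1 (197499994 to 197503457) had 318 and 297 counts in shNC and 517 and 584 in shMETTL14. The shMETTL14 libraries were the higher ones throughout, and the log2 fold change came to 0.85 (SE 0.0927, edgeR adjusted p = 9.48e-08). Of its coding bases 47.9% belong also to the readthrough gene HSPE1-MOB4 on the same strand, and reads there may not have been counted for either, so its level is uncertain. Of the exon bases of HSPD1, 6.62% lie opposite HSPE1. HSPD1 had 17177 and 16816 counts against 18333 and 17845, a log2 fold change of 0.10 (SE 0.0358, edgeR adjusted p = 0.0245). Without shNC replicate 1 the HSPD1 value was 0.08, without shMETTL14 replicate 1 it was 0.10 and without shMETTL14 replicate 2 it was 0.11, and in none of these was it called.

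Small heat shock proteins are 7 members, of which 4 were tested and 1 was called, as higher. Of all genes tested, 52.5% were called and 27.2% were higher. HSPB1, a stress-induced holding chaperone that also binds actin, had 3518 and 3831 counts in shNC and 4485 and 4616 in shMETTL14. Both shMETTL14 libraries were above both shNC libraries, at 188 ± 16.7 against 234 ± 7.63 CPM (SD, n = 2) and a log2 fold change of 0.32 (SE 0.0493, edgeR adjusted p = 1.26e-05). HSPB6 (0.24), HSPB8 (-0.06) and HSPB7 (-0.92) had at most 51 counts in a library and were not called. HSPB7, known from heart muscle, had the lowest log2 fold change of all members at 12 and 13 counts against 6 and 7. The rule by symbol also took in HSPBAP1 and HSPBP1, which bind heat shock proteins and are not small heat shock proteins themselves. HSPBAP1, which binds HSPB1, rose (0.57, SE 0.104, edgeR adjusted p = 8.23e-05), and HSPBP1, a nucleotide exchange factor of HSP70, had 0.22 (edgeR adjusted p = 0.0524).

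J-domain proteins of class A resemble the bacterial DnaJ over their whole length. DNAJA1 (ENSG00000086061, chromosome 9 from 33025211 to 33039907) had the smallest SE of the 10 largest rises, with 3327 and 3354 counts in shNC and 5266 and 5058 in shMETTL14. The libraries of each group lay close together and the groups far apart, at 171 ± 5.82 against 266 ± 4.34 CPM (SD, n = 2). Its value on the log2 scale was 0.64 (SE 0.0415, edgeR adjusted p = 3.09e-11), and its transcript opens on the full element printed above. DNAJA2, the other main cytosolic partner of HSPA8, was at 0.08 and not called, and DNAJA3, its mitochondrial relative, at -0.01. DNAJA4 had at most 1 count in a library.

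Class B holds the J proteins with a glycine-rich stretch after the J domain. Of 7 tested, 4 rose and 1 fell, where 27.2% of all genes rose and 25.3% fell. DNAJB5 (ENSG00000137094, chromosome 9 from 34989641 to 34998900), a close relative of DNAJB1, had 730 and 736 counts in shNC and 1383 and 1363 in shMETTL14. The groups did not overlap, at 37.5 ± 1.28 against 70.7 ± 0.132 CPM (SD, n = 2) or 188% of the control, and the log2 fold change came to 0.91 (SE 0.0594, edgeR adjusted p = 2.84e-11). DNAJB6 (chromosome 7 from 157335381 to 157417439), known for keeping polyglutamine proteins from aggregating, had 2048 and 1983 counts against 3052 and 3099 and a log2 fold change of 0.62 (SE 0.0439, edgeR adjusted p = 1.24e-10). Of the 100-base words in its transcript, 11.0% were shared with another annotated transcript. DNAJB1, the main heat-inducible J protein, rose less. It had 784 and 767 counts against 965 and 982, a log2 fold change of 0.34 (SE 0.0639, edgeR adjusted p = 1.29e-04).

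The rest of class B was mixed. DNAJB12, an ER membrane J protein that faces the cytosol, had a log2 fold change of 0.18 (SE 0.0630, edgeR adjusted p = 0.0176). DNAJB14, its closest relative and also in the ER membrane, fell from 1188 and 1208 counts to 866 and 962, or -0.38 on the log2 scale (SE 0.0646, edgeR adjusted p = 3.61e-05). The shMETTL14 libraries of DNAJB14 both lay below the shNC libraries, the opposite order to DNAJB12. DNAJB4, which a heat shock is known to induce, had 203 and 205 counts against 179 and 180 and was not called (-0.18, SE 0.122, edgeR adjusted p = 0.238). DNAJB2, a neuronal J protein that sends clients to the proteasome, was at 0.05.

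Class C is the largest and most varied, joined only by the J domain, and each protein serves a narrow task. Of 26 members 23 were tested, 12 rose and 4 fell, where 27.2% of all genes rose and 25.3% fell. The median log2 fold change of the class was 0.15. Under upper quartile scaling 9 rose and 5 fell, where 3550 of all genes rose and 4961 fell. With DESeq2 7 rose and 3 fell, where 3234 of all genes rose and 2788 fell. DNAJC9, a histone chaperone (chromosome 10 from 73183362 to 73248862), rose most, from 1659 and 1685 counts to 2673 and 2513, which is 0.64 on the log2 scale (SE 0.0475, edgeR adjusted p = 2.47e-10). On the opposite strand, other genes cover 26.2% of its coding bases. Reads there may not have been counted for either gene, so its level is uncertain. DNAJC8 (0.29), a spliceosome component, DNAJC21 (0.28), which acts in maturation of the large ribosomal subunit, and DNAJC2 (0.21), the ribosome-bound partner of HSPA14, were also higher. The smallest rises were those of DNAJC5 (0.16), the cysteine string protein of synaptic vesicles, DNAJC13 (0.15) of endosomes and DNAJC6 (0.15), the neuronal auxilin that strips clathrin coats. None of these last 3 was called under upper quartile scaling, and DNAJC5 and DNAJC6 were not called with DESeq2 either. DNAJC12 (0.25), a co-chaperone of the aromatic amino acid hydroxylases, rose too, as did the mitochondrial DNAJC11 (0.26) and the ER proteins DNAJC1 (0.27), DNAJC14 (0.25) and DNAJC25 (0.44). Of DNAJC14's coding bases 46.2% and of DNAJC25's 28.8% lie also in another gene on the same strand. For DNAJC25, leaving out shNC replicate 1 moved the value to 0.24, and for DNAJC1, leaving out shMETTL14 replicate 2 moved it to 0.15, both then not called.

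The 4 class C genes that fell, with DNAJB14, are all the members that fell. DNAJC22 (ENSG00000178401, chromosome 12 from 49346917 to 49357546), a membrane J protein, had 145 and 142 counts in shNC and 80 and 78 in shMETTL14, or 7.35 ± 0.0995 against 4.07 ± 0.0233 CPM (SD, n = 2). Its log2 fold change of -0.85 (SE 0.164, edgeR adjusted p = 1.54e-04) was the largest fall that was called. DNAJC18, an ER membrane relative of DNAJB12 and DNAJB14, had 639 and 633 counts against 415 and 441 (log2 fold change -0.56, SE 0.0810, edgeR adjusted p = 4.66e-06). Of these 3 related ER membrane genes, 2 were lower and 1 was higher. DNAJC27, which carries a small GTPase domain beside its J domain, had 333 and 321 counts against 229 and 243 (log2 fold change -0.46, SE 0.103, edgeR adjusted p = 7.30e-04). DNAJC19, a part of the mitochondrial import motor, had 1048 and 1027 counts against 855 and 936 (log2 fold change -0.20, SE 0.0647, edgeR adjusted p = 0.0118), and without shMETTL14 replicate 1 the value was -0.12 and no longer called. The shMETTL14 libraries lay below both shNC libraries in each of the 5 genes. The 2 groups lay apart in all 36 called members and in 75.5% of all genes tested.

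The class C genes that were not called ran from DNAJC28, with -0.73 at 17 to 41 counts, to DNAJC30, with 0.16. Between them stood DNAJC4 (-0.16), DNAJC7 (-0.09), DNAJC24 (0.07), DNAJC17 (0.08) and DNAJC16 (0.13). DNAJC7, a co-chaperone that passes clients between HSP70 and HSP90, was called lower when scaled by upper quartile (-0.16) or by library size alone (-0.13), or after a filter of at least 10 counts in every library (-0.11).

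The members were then counted by compartment, beside the 27.2% of all genes that were higher and the 25.3% that were lower. Of the 44 tested members listed neither as mitochondrial nor as ER, 23 rose and 2 fell, with a median of 0.18. Of 7 mitochondrial members 4 rose and 1 fell (median 0.11), and of 8 ER members 4 rose and 2 fell (median 0.16). Among the 39 tested members that overlap no other protein-coding gene, 20 rose and 4 fell.

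Levels among the members spanned several orders of magnitude. Per kilobase of exon, HSP90AB1 led at 1040 ± 2.15 CPM in shNC, followed by HSPA8 at 315 ± 0.471, HSP90AA1 at 280 ± 0.424, HSPD1 at 205 ± 2.73 and HSPB1 at 115 ± 10.2 (SD, n = 2). In shMETTL14 the order of HSPA8 (313 ± 0.599) and HSP90AA1 (334 ± 4.19) was exchanged. Length here is that of all annotated exons of a gene joined, 4849 bases for HSPA8 and 5248 for HSP90AA1. Their longest coding transcripts have 2463 and 3510 bases, so such orders, and the groups by level below, depend on the length chosen. The 5 genes took 68.8% and 68.7% of the members' summed CPM in the shNC libraries and 66.5% and 66.2% in the shMETTL14 libraries. All members together made up 1.04% and 1.05% of gene counts in shNC and 1.13% in each shMETTL14 library, or 10415 ± 61.6 against 11317 ± 36.3 CPM (SD, n = 2), 109% of the control. The 40 DNAJ members alone went from 1925 ± 14.6 to 2272 ± 3.11 CPM, 118% of the control, while HSP70 genes without the HSP110 family stood at 103% and HSP90 genes at 106%.

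**Figure D3:**
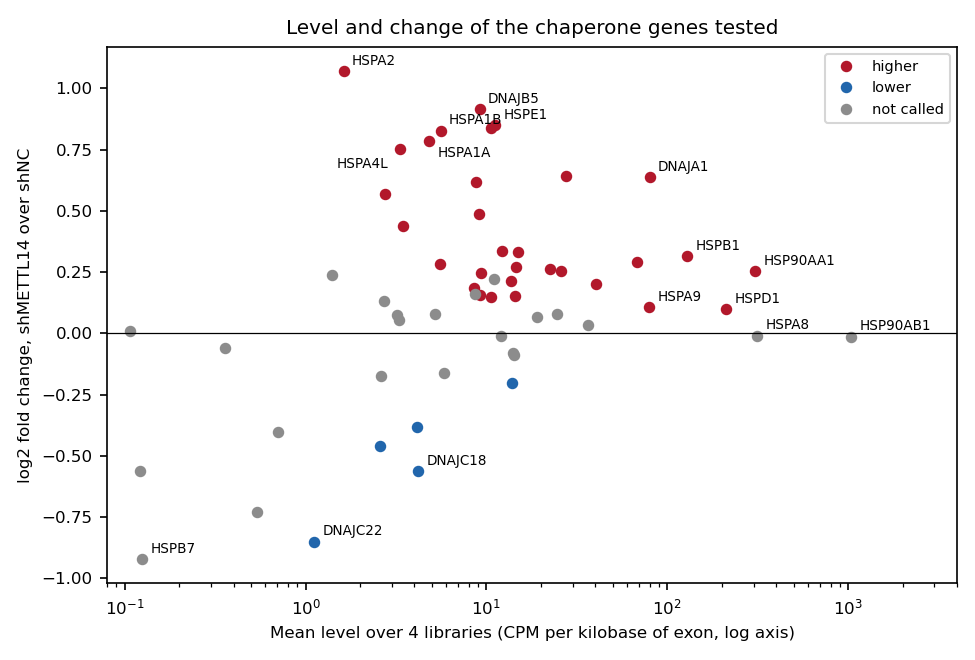
Mean level over the 4 libraries in CPM per kilobase of exon, on a log axis, against log2 fold change of shMETTL14 over shNC, for the 59 members tested, coloured by call. The highest points, HSPA2 (1.07), DNAJB5 (0.91) and HSPE1 (0.85), stand at low and middle levels, and HSP90AB1 and HSPA8 at the right lie on the line at 0.

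By level, the counts describe the members only, since shares over all genes were computed overall (27.2% higher, 25.3% lower) and not at each level. Above 50 CPM per kilobase, 6 of 8 members rose and 0 fell. Between 10 and 50 CPM per kilobase 12 of 20 rose and 1 fell, and between 2 and 10 CPM per kilobase 12 of 22 rose and 3 fell. Of the 9 members under 2 CPM per kilobase, HSPA2 rose, DNAJC22 fell and the others were not called. The median SE of the log2 fold change came to 0.0365 in the highest bin and 0.363 in the lowest. The log2 fold change of HSPD1, at 0.10, is smaller than the SE in the lowest bin.

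Genes around the chaperone cycle were read from a list outside the symbol rule, made up of HSP90 and HSP70 co-chaperones with the factor HSF4, the HSF1-binding HSBP1 and the small heat shock protein CRYAB. Of 21 tested, 10 rose, HSBP1 among them, and 4 fell (median 0.11), where 27.2% of all genes rose and 25.3% fell. Under upper quartile scaling the split was 6 and 5, where over all genes it was 3550 higher and 4961 lower. BAG1, a nucleotide exchange factor of HSP70, rose by 0.61 on the log2 scale (SE 0.0579, edgeR adjusted p = 1.09e-08), from 1283 and 1083 counts to 1767 and 1830. AHSA1, the activator of the HSP90 ATPase, rose by 0.54 on that scale (SE 0.0440, edgeR adjusted p = 1.06e-09), from 1979 and 1870 counts to 2818 and 2748. PTGES3, a co-chaperone that steadies HSP90 with its client, fell by 0.44 on the log2 scale (SE 0.0388, edgeR adjusted p = 4.44e-09), from 9219 and 8828 counts to 6542 and 6711.

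The cytosolic chaperonin TRiC folds actin and tubulin, and prefoldin brings it clients. Of their 14 subunits 10 rose and 1 fell (median 0.19), where 27.2% of all genes rose and 25.3% fell. Under upper quartile scaling 7 subunits rose and 2 fell, where 3550 of all genes rose and 4961 fell. The 3 called with the greatest change were all prefoldin subunits: PFDN2 (0.66, SE 0.0535), PFDN1 (0.43, SE 0.0555) and VBP1 (0.37, SE 0.0498). Their edgeR adjusted p-values were 1.14e-09, 1.19e-06 and 1.62e-06. Beside them, the 5 ER chaperone genes that the symbol rule leaves out gave 4 rises and 0 falls (median 0.65). HSPA5, the HSP70 of the ER lumen, went from 7711 and 7689 counts to 16138 and 15365 (log2 fold change 1.04, SE 0.0385, edgeR adjusted p = 3.12e-15), and DNAJB11 (0.84), DNAJC3 (0.65) and DNAJC10 (0.31), which serve it as J proteins, rose as well. DNAJB9, at 0.19 (SE 0.0953, edgeR adjusted p = 0.0988), was not called.

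**Figure D4:**
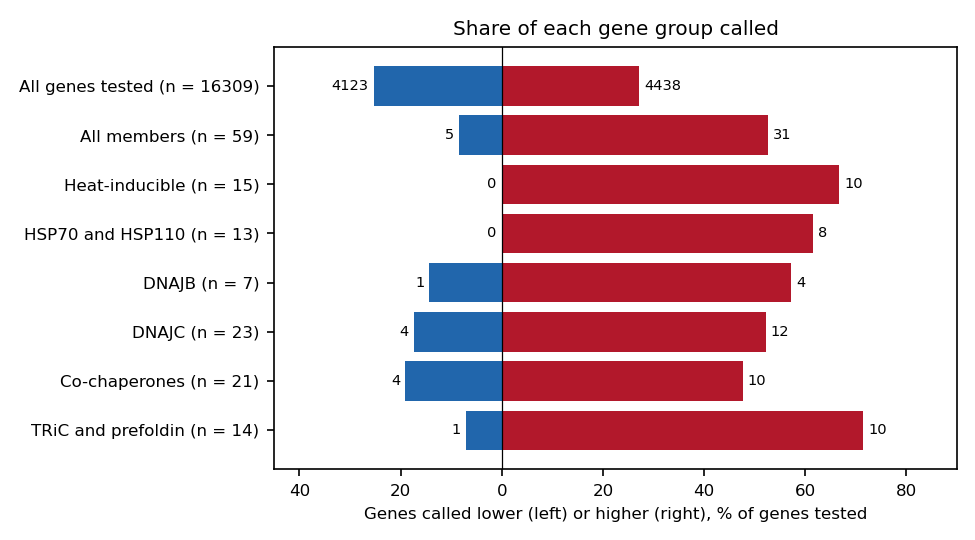
Share of the tested genes in each group that was called lower (left, blue) or higher (right, red) in shMETTL14, in percent, with the number of genes beside each bar. All 16309 genes split nearly evenly, with 27.2% higher and 25.3% lower, whereas the 59 members tested had 31 higher and 5 lower.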

How the data were processed

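RNA of 4 SK-N-BE(2) libraries, 2 shNC and 2 shMETTL14, was sequenced in pairs of reads on a NovaSeq machine. The deposited file is a single table of read counts for each Ensembl gene, which the authors had not normalized, in the layout htseq-count writes. The submitters' processing notes name HISAT2 2.1.0, StringTie 1.3.6, HTSeq 0.13.5 and edgeR, with GRCh38 and hg38, and give no role or order. The annotation release and the strand setting are not given in the sources used here, so reads of overlapping genes on opposite strands cannot be told apart.

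Lines that name no gene took from 19.1% to 19.9% of a library and were left out. Symbols came from a gene name table that held 60401 of 60671 IDs, and coordinates from GENCODE 29 (GRCh38), which held 58453. The table had 0 other sample columns.

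The main test was the quasi-likelihood F-test of edgeR 4.0.16 (R 4.3.3), with TMM scaling and the group as the only term, over all 16309 genes that passed filterByExpr (minimum count 10, minimum total 15). Benjamini-Hochberg adjustment ran over all of these, and the threshold for a call was an adjusted p under 0.05. The biological coefficient of variation was 3.45%. Fold changes are shMETTL14 over shNC, SE values come from the F statistic, and CPM values are counts scaled to library size after TMM. The procedure was tested on simulated data. Alternatives were other scalings and filters, DESeq2 1.42.0, the replicate number as a block, and leaving out each library.

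Members and lists were chosen with earlier results of these data known. Full values are printed for METTL14, the heat-inducible list, HSF1, HSF2, BAG3, the 10 largest rises and the 10 largest falls among called members (5 fell), and the 3 most changed called genes of the outside lists with the 5 ER genes. Other members are named with their fold change in group sentences. Promoter windows are from RefSeq.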

Additional observations from a re-analysis of the deposited data

How the results depend on the processing

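Of the 36 called members, 26 kept their call under all 11 alternatives, 22 higher and 4 lower, and 0 reversed. The 10 others, lost under at least 1, were DNAJB12, DNAJC1, DNAJC5, DNAJC6, DNAJC13, DNAJC14, DNAJC19, DNAJC25, HSPA9 and HSPD1. DESeq2 called 27 members (23 higher, 4 lower), all of them among the 36, and 10 in class C where edgeR called 16. It called 6022 of all genes against 8561. Upper quartile scaling called 25 members higher and 7 lower, and library size alone 26 and 6. Over all genes, upper quartile scaling gave 3550 higher and 4961 lower, or 41.7% higher against 51.8% under TMM, and moved the median of all genes by -0.068. The members' median log2 fold change was 0.089 under that scaling and 0.11 with library size alone, against 0.16. Leaving out 1 library at a time gave 31 to 32 called members, 7287 to 7458 called genes and a members' median of 0.15 to 0.18. With the replicate number as a block, 37 members (32 higher, 5 lower) and 8926 genes were called. HSPBP1, at 0.22, was the added member, and the libraries share only a number: those with the same number did not deviate together (Pearson correlation -0.0018 across genes).

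Calls lost by leaving out 1 library, beside those the report names, were HSPA9 without shNC replicate 1 (0.07) or shMETTL14 replicate 1 (0.11) or 2 (0.12), DNAJB12 without shNC replicate 2 (0.17) or shMETTL14 replicate 1 (0.14), DNAJC14 without shNC replicate 1 (0.18) or shMETTL14 replicate 2 (0.21), DNAJC5 without shNC replicate 1 (0.15) or 2 (0.16) or shMETTL14 replicate 2 (0.12), DNAJC6 without shNC replicate 2 (0.14) or shMETTL14 replicate 1 (0.14) or 2 (0.17), and, without shNC replicate 2, DNAJC1 (0.22) and DNAJC19 (-0.18). HSPBP1 was gained without shNC replicate 2 (0.30) or shMETTL14 replicate 1 (0.35). Directions that reversed were all of members not called. Under upper quartile scaling these were DNAJB2 (-0.0137), HSF2 (-0.0020), HSPA12A (-0.0585) and HSPA13 (-0.0347), and by library size alone HSPA12A (-0.0361) and HSPA13 (-0.0121). Without a filter DNAJA3 (0.00084) and HSPA8 (0.00085) reversed, and HSPA12A did (-0.0092) where every library had to hold 10 counts. Leaving out 1 library at a time, values ran from -0.0365 to 0.0289 for DNAJA3, from -0.0219 to 0.188 for DNAJC17, from -0.107 to 0.246 for DNAJC24, from -0.0203 to 0.0033 for HSP90AB1, from -0.217 to 0.216 for HSPA12A, from -2.09 to 0.178 for HSPA12B, from -0.0254 to 0.0929 for HSPA13 and from -0.424 to 0.451 for HSPB8. DNAJC24 was called without shMETTL14 replicate 2 (0.246) and DNAJC28 without shNC replicate 1 (-1.09). The causes were not tested. Members with few counts are limited by depth, with a median SE of 0.363 under 2 CPM per kilobase.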
